A study of Rattus norvegicus with 9 samples.

Results

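The 10 genes described here are readouts of the unfolded protein response of the endoplasmic reticulum (ER) and of the integrated stress response: Hspa5, Hsp90b1, Calr, Pdia4, Herpud1, Xbp1, Atf4, Ddit3, Trib3 and Asns. They were chosen by symbol, with no threshold on a measured value, from the 40154 gene rows of the deposited tables, and all 10 were among the 11124 genes tested. The data are RNA-seq of whole liver in 9 libraries, 3 in each of 3 groups, from wild-type Sprague-Dawley rats aged 5 months. Normal rats were untreated, with neither carbon tetrachloride (CCl4, a liver toxin) nor transplanted cells. The other 2 groups were both cirrhotic: PBS rats were injected with phosphate-buffered saline, and HepLPC rats with progenitor-like liver cells (HepLPCs) derived from rat hepatocytes. Doses, routes and times of the injections are not given in the sources used here. PBS against normal therefore sets cirrhosis, the treatment that led to it and an injection together against untreated liver, and the effects of each cannot be told apart. HepLPC against PBS asks how cirrhotic livers differ with the injected cells. Whether the libraries of a group come from different animals is not stated, so the p-values reflect only how far these samples spread, part of which may be technical. In whole tissue, fewer cells of a type and less RNA per cell cannot be told apart.

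Proteins that misfold in the ER activate sensors in its membrane. The sensor IRE1 (gene Ern1) splices Xbp1 mRNA so that it encodes an active transcription factor, the sensor ATF6 is cut to release another, and both raise the genes of chaperones and of the degradation of misfolded proteins. The sensor PERK (gene Eif2ak3) phosphorylates the translation initiation factor eIF2, which slows translation in general but favours that of Atf4 mRNA. Other eIF2 kinases act on the same step in amino acid shortage, haem shortage and viral infection, and this shared output is the integrated stress response, in which ATF4 raises genes of amino acid supply, Ddit3 and Trib3. Hepatocytes secrete most plasma proteins and carry a large ER. Gene-level values hold no information on Xbp1 splicing, ATF6 cleavage, eIF2 phosphorylation or the amount of ATF4 protein.

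The promoters of 6 of the 10 genes hold letters known as binding elements of these pathways, and the 250 bases before their annotated starts are shown because these elements belong to different branches of the response. They are RefSeq sequences of the rat assembly GRCr8, printed 5′ to 3′ on the strand of the gene. The coordinates are chr3:38452766-38453015 (plus strand) for Hspa5, chr7:23012294-23012543 (minus strand) for Hsp90b1, chr19:40213117-40213366 (plus strand) for Calr, chr14:84604373-84604622 (plus strand) for Xbp1, chr19:10614708-10614957 (minus strand) for Herpud1 and chr3:161275534-161275783 (minus strand) for Trib3. Capitals mark the matches to the motifs searched.
Hspa5: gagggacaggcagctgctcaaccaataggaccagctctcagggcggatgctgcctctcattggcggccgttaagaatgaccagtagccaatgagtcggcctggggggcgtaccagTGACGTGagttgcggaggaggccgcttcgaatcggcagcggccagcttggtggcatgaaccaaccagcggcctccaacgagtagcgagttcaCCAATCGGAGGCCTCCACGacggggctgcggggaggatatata
Hsp90b1: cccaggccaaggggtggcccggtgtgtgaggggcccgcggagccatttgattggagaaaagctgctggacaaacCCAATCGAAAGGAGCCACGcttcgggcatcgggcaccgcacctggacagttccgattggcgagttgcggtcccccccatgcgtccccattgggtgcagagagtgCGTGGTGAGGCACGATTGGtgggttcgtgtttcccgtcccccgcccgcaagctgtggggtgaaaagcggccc
Calr: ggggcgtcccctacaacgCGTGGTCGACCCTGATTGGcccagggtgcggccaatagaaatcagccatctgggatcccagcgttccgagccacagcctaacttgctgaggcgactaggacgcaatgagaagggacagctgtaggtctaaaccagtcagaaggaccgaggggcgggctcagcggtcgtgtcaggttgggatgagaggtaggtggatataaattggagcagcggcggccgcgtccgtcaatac
Xbp1: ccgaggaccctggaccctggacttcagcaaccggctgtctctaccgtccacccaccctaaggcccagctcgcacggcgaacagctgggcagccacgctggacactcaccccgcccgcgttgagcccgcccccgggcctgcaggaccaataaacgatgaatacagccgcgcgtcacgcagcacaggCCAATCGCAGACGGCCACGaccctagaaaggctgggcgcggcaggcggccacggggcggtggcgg
Herpud1: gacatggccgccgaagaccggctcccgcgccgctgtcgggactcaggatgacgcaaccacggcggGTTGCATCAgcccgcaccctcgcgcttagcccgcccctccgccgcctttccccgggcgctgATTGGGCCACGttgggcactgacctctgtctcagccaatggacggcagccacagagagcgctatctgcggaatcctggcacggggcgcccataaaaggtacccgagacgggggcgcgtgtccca
Trib3: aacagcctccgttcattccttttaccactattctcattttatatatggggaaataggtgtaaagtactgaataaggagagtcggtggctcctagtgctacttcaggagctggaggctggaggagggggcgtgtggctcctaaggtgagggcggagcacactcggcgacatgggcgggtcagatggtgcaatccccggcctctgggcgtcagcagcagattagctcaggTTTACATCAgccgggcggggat

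The motifs were searched for exactly, on both strands, in windows of 300 bases (250 before to 50 after the start) of 33469 rat promoters, which included those of all 10 genes. The ER stress response element (ERSE, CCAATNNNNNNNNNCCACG), to which ATF6 and the factor NF-Y are known to bind, was found in 22 promoters, a share of 0.0657%. Of these, 4 belong to the genes described here: Hspa5 at -43 to -25, Calr at -232 to -214, Xbp1 at -65 to -47, and Hsp90b1 at -176 to -158 and again at -72 to -54, counted from the start. The related element ERSE-II (ATTGGNCCACG) was found in 17 promoters (0.0508%), among them that of Herpud1 at -124 to -114. The core of the unfolded protein response element (TGACGTG), a site of XBP1 and ATF6, was found in 605 promoters (1.81%), among them that of Hspa5 at -135 to -129. The C/EBP-ATF response element of ATF4 (CARE, TGATGNAAN) was found in 1328 promoters (3.97%), among them those of Herpud1 at -185 to -177 and Trib3 at -22 to -14. No match overlapped another. The windows of Pdia4, Atf4, Ddit3 and Asns held none of these letters, which says only that they are not in these windows. The median GC content was 63.2% for the 10 windows and 51.7% over all promoters.

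**Figure D1:**
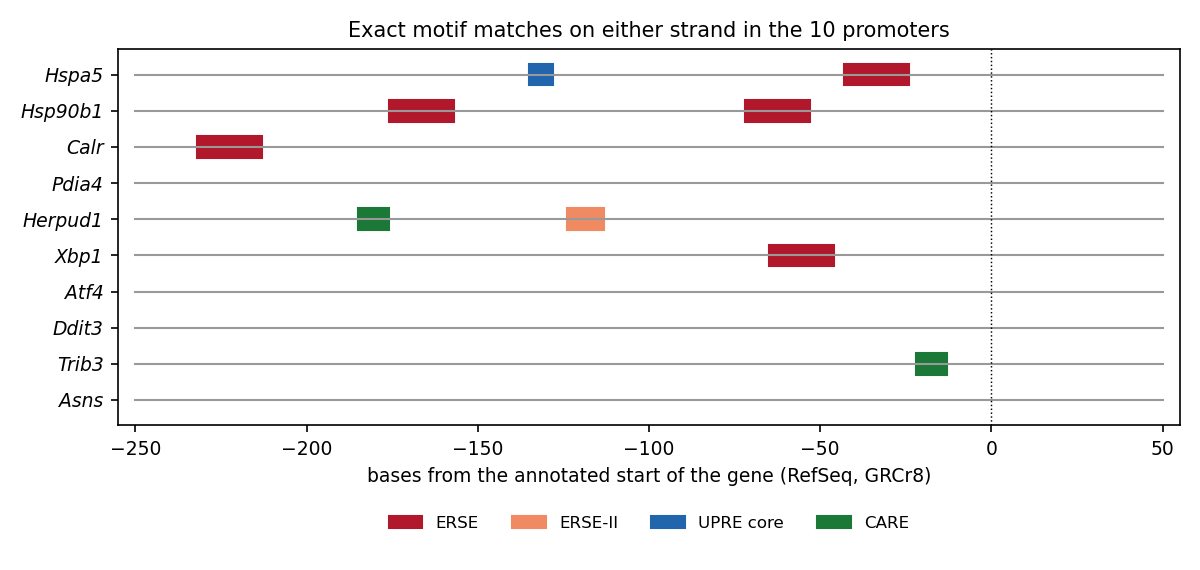
Exact motif matches on either strand in the 300-base promoter windows of the 10 genes. The x axis is the distance in bases from the annotated start (dotted line), each grey line is 1 promoter and each box 1 match. ERSE boxes lie in Hspa5, Hsp90b1, Calr and Xbp1, the ERSE-II box in Herpud1, and CARE boxes in Herpud1 and Trib3.

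Depth, recovered from the steps of the RPKM values (reads per kilobase of gene and per M reads, where M stands for a megaread), ranged from 17.4 to 21.8 M reads per library. Differences between groups are given as log2 fold changes of RPKM + 1, with 95% intervals from the limma fit of all tested genes, and a gene was called when its Benjamini-Hochberg adjusted p was under 0.05. Against normal liver, most genes of the PBS group were listed higher: the median log2 fold change of all tested genes was 0.184, and it was -0.044 once libraries were rescaled by the median of ratios. This rescaling also moved the split of calls from 1157 higher and 105 lower to 530 higher and 276 lower. For HepLPC against PBS the all-gene median was -0.145 and became 0.043, and 15 higher and 326 lower calls became 23 and 158 (32 and 181 with quantile normalization). PBS replicate 1 and HepLPC replicate 2 departed from their groups over all genes, with limma library weights of 0.31 and 0.19 against 1.22 to 2.01 for the others, and their deviations from their group means correlated with each other at 0.608 across genes. Log2 fold changes without both are given beside those of the 10 genes.

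In PBS livers, 2 of the 10 genes rose against normal liver, the ER chaperone Hsp90b1 by 1.55-fold and the asparagine synthetase gene Asns by 3.39-fold in mean RPKM, and none fell. This is 20% of the genes, where 11.3% of all tested genes were called (10.4% higher and 0.944% lower), but Asns passed the filter on low values only through the libraries in which it was high, so the share is not read as a result. The remaining 8 were not called, although 5 of the 10 had an unadjusted p under 0.05, where 27.3% of all tested genes did. The median log2 fold change of the 10 genes was 0.39, with 8 above the all-gene median. After the median-of-ratios rescaling it was 0.10, with 6 of 10 above 0, and neither Hsp90b1 nor Asns was called. Without PBS replicate 1 and HepLPC replicate 2, Hsp90b1 was called and Asns was not (0.68, adjusted p = 0.0619). All 3 PBS libraries were above all 3 normal libraries for 6 of the 10 genes (Hspa5, Hsp90b1, Calr, Herpud1, Atf4 and Asns), against a share of 32.7% of all tested genes.

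In HepLPC livers none of the 10 genes was called against PBS, where 3.07% of all tested genes were (0.135% higher and 2.93% lower), and none had groups that did not overlap, against a share of 18.4% of all tested genes. By limma, Xbp1 alone had an unadjusted p under 0.05, where 16.1% of all tested genes did, and voom on recovered reads also called 0 of the 10. The median log2 fold change was -0.11, beside -0.14 for all tested genes, and 3 of the 10 were above 0, as 26.1% of all tested genes were. After rescaling the median was 0.12, with 7 of the 10 above 0. Against normal liver, too, no gene was called in HepLPC livers by limma or by voom, where limma called 0.0809% of all tested genes. In that comparison 4 of the 10 genes (Hspa5, Hsp90b1, Calr and Pdia4) had an unadjusted p under 0.05, where 9.31% of all tested genes did. These 4 varied together over the libraries (r of 0.80 to 0.96), so they do not count as 4 separate results. The median of the 10 genes was 0.35 beside 0.05 for all tested genes. All HepLPC libraries were above all normal ones for 5 of the 10 genes (the same 4 and Herpud1) and below them for Xbp1. The shares of all tested genes were 12.3% above and 3.51% below. Each group enters 2 of the 3 comparisons, so these are not independent of each other.

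**Figure D2:**
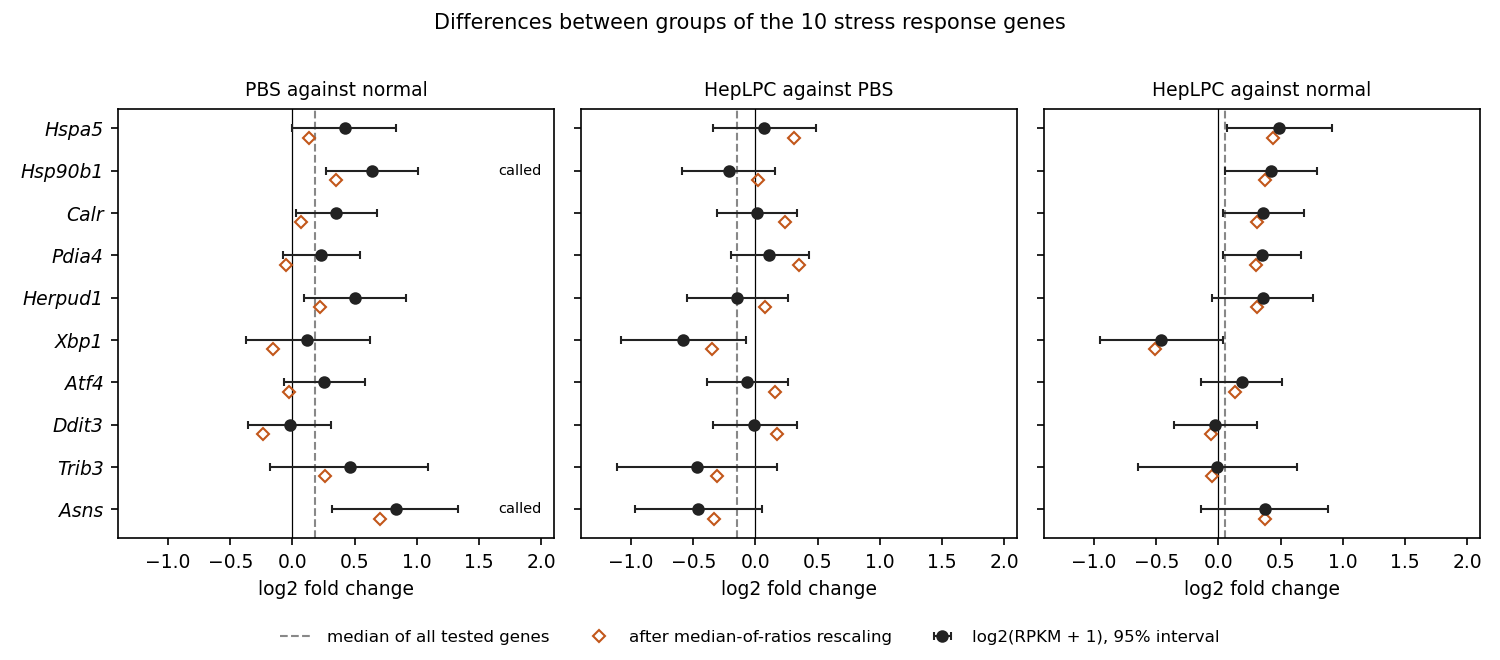
Log2 fold change of each of the 10 genes (x axis) in the 3 comparisons; circles and bars are the limma estimate and its 95% interval on log2(RPKM + 1), open diamonds the estimate after median-of-ratios rescaling, and the dashed line the median of all tested genes. Only Hsp90b1 and Asns in PBS against normal are marked as called, and neither was called after rescaling; Pdia4, Xbp1 and Atf4 there and Hsp90b1, Herpud1, Atf4 and Ddit3 in HepLPC against PBS change sign with it.

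The chaperones of the ER lumen were the most abundant of the 10. Calr encodes calreticulin, a calcium-binding lectin chaperone of glycoproteins, and was listed at 440, 331 and 397 RPKM in normal replicates 1 to 3, at 513, 494 and 477 in PBS, and at 464, 549 and 484 in HepLPC. Hspa5 encodes BiP, the HSP70 chaperone that also holds the sensors inactive, and was listed at 302, 223 and 339 RPKM in normal, 416, 366 and 357 in PBS, and 381, 475 and 350 in HepLPC. Each was higher in all 6 libraries of cirrhotic rats than in any normal library. Hsp90b1 encodes GRP94, the HSP90 of the ER, and stood at 219, 173 and 231 RPKM in normal, 335, 293 and 336 in PBS, and 255, 333 and 249 in HepLPC. Its 6 cirrhotic libraries also lay above the normal ones, with HepLPC replicate 2 at the PBS level and the other 2 HepLPC libraries below all PBS libraries. Pdia4, a protein disulfide isomerase that makes and reshuffles disulfide bonds, stood at 133, 105 and 144 RPKM in normal, 156, 144 and 147 in PBS, and 154, 172 and 159 in HepLPC. The Pdia4 values of normal and PBS met at 144 RPKM, while those of HepLPC lay above every normal library.

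Of these 4, Hsp90b1 alone passed the test in PBS against normal. It went from 208 ± 30.8 to 322 ± 24.6 RPKM (mean ± SD, n = 3 each), with a log2 fold change of 0.64 (95% interval 0.27 to 1.01, adjusted p = 0.0381). The difference was not called once the libraries were rescaled by the median of ratios (0.35, adjusted p = 0.388), nor without any 1 of the 6 libraries compared: the log2 fold change then ran from 0.51 without normal replicate 2 (adjusted p = 0.15) to 0.72 without normal replicate 3 (adjusted p = 0.0639). Without PBS replicates 1, 2 and 3 in turn, adjusted p was 0.0875, 0.0602 and 0.13, and without normal replicate 1 it was 0.086. Without PBS replicate 1 and HepLPC replicate 2 together it was called, at 0.61 with an adjusted p of 0.0239. Hspa5 had a log2 fold change of 0.42 (0.00 to 0.83, adjusted p = 0.182), Calr of 0.35 (0.03 to 0.68, adjusted p = 0.149) and Pdia4 of 0.23 (-0.08 to 0.54, adjusted p = 0.313). After rescaling these were 0.13, 0.07 and -0.05, and without PBS replicate 1 and HepLPC replicate 2 they were 0.35, 0.33 and 0.20. A large part of each rests on 1 library: normal replicate 2 had the lowest value of all 9 libraries for all 4 chaperones, and without it Hspa5 was at 0.24, Calr at 0.24 and Pdia4 at 0.10.

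Between the cirrhotic groups no chaperone was called. For HepLPC against PBS the log2 fold change was 0.07 for Hspa5 (-0.34 to 0.49), 0.01 for Calr (-0.31 to 0.33), 0.11 for Pdia4 (-0.20 to 0.43) and -0.21 for Hsp90b1 (-0.59 to 0.16), with adjusted p between 0.565 and 0.976. The intervals leave room for differences of either sign, so the groups are not shown to be alike. HepLPC replicate 2 held the highest value of all 9 libraries for Hspa5, Calr and Pdia4, and without it Hspa5 and Calr changed sign, to -0.05 and -0.06. Rescaling put Hsp90b1 at 0.02. Without PBS replicate 1 and HepLPC replicate 2, Hspa5 was at 0.02, Calr at -0.03, Pdia4 at 0.10 and Hsp90b1 at -0.32. For HepLPC against normal Hspa5, Calr, Pdia4 and Hsp90b1 were at 0.49, 0.36, 0.35 and 0.42, with intervals above 0 but adjusted p from 0.469 to 0.5. Without normal replicate 2 they were at 0.32, 0.25, 0.22 and 0.30. Without PBS replicate 1 and HepLPC replicate 2 they were at 0.36, 0.29, 0.30 and 0.29.

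The 4 chaperones varied together from library to library. Their summed RPKM was 1094, 832 and 1111 in normal, 1421, 1297 and 1317 in PBS, and 1254, 1529 and 1242 in HepLPC. As a share of all recovered reads they took 0.252, 0.192 and 0.259% in normal, 0.333, 0.302 and 0.309% in PBS, and 0.292, 0.358 and 0.287% in HepLPC. The normal libraries were thus lowest and HepLPC replicate 2 highest on both scales. Both are relative to the reads of a library, so their match adds no support, and neither includes the median-of-ratios rescaling. Its divisors were 0.968, 0.897 and 0.91 in normal and 1.04, 1.16 and 1.19 in PBS, so it would narrow the difference between these 2 groups. Pearson's r between pairs of the 4, on log2(RPKM + 1) over the 9 libraries, was 0.80 to 0.96 for the 6 pairs. These are descriptions over libraries that share their depth, their scaling and the difference between groups. By the same measure, the genes most like the mean of the 4 were Gmppb (0.978) and Pgm3 (0.953), enzymes that make sugar donors for glycosylation, Slbp (0.973), the binding protein of histone mRNA stem-loops, Utp18 (0.960), a factor of ribosome assembly, and the GTPase gene Drg1 (0.954).

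**Figure D3:**
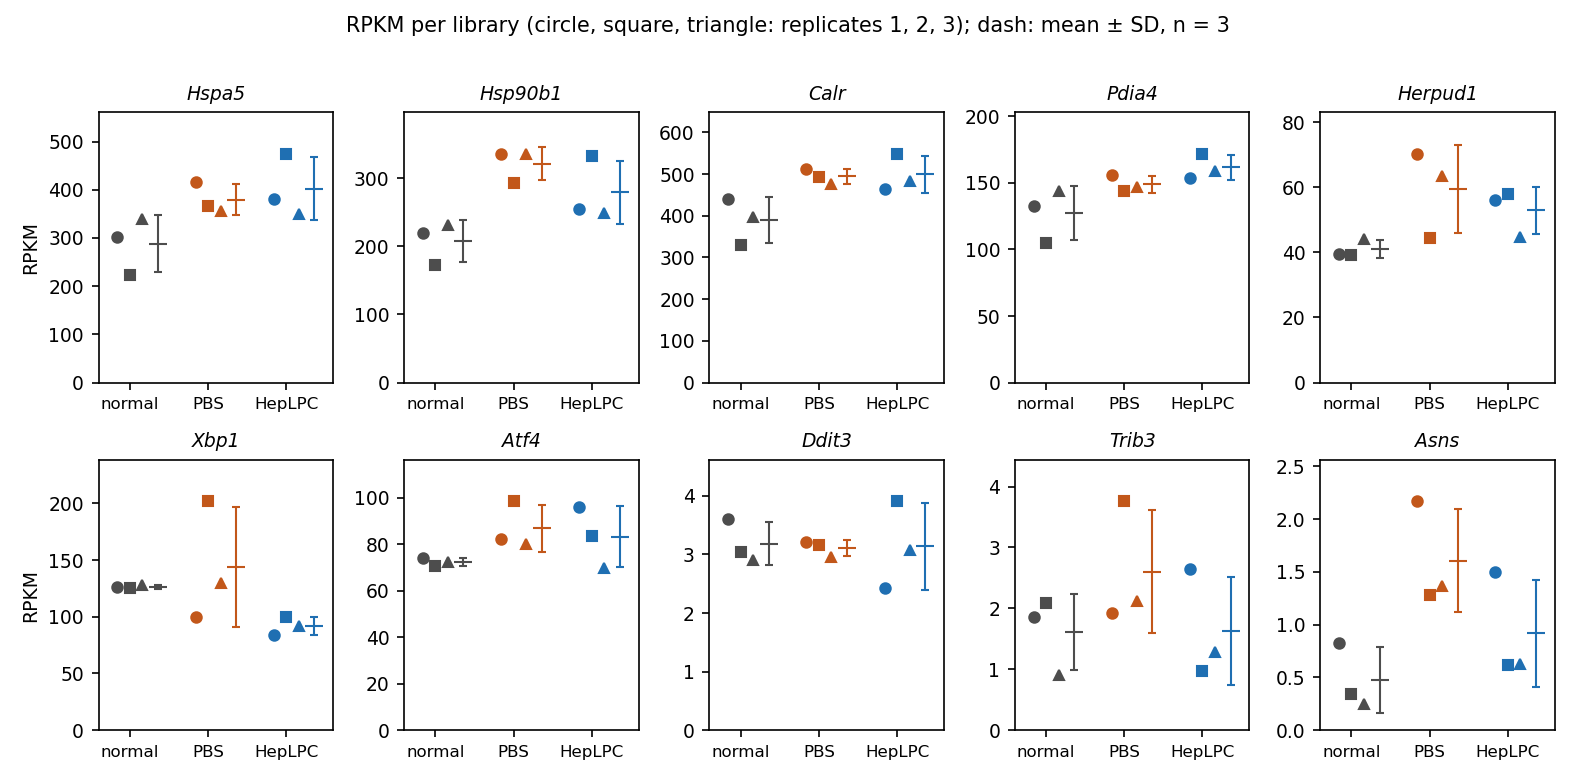
RPKM of the 10 genes in each of the 9 libraries (circle, square and triangle for replicates 1, 2 and 3; dash and bar, mean ± SD, n = 3), each panel with its own y axis from 0. Normal replicate 2 is the lowest library in the panels of Hspa5, Hsp90b1, Calr and Pdia4, the 3 PBS values of Xbp1 spread from 99.7 to 202 RPKM, and Ddit3, Trib3 and Asns stay under 4 RPKM.

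Herpud1 and Xbp1 link the sensors to degradation and to transcription. Herpud1 encodes a membrane protein of ER-associated degradation and was listed at 39.5, 39.1 and 44.1 RPKM in normal, 70.3, 44.3 and 63.5 in PBS, and 56.2, 57.9 and 44.6 in HepLPC. All cirrhotic libraries were above the normal ones, but PBS replicate 2 and HepLPC replicate 3 exceeded normal replicate 3 by under 1 RPKM. Its log2 fold change for PBS against normal was 0.50 (0.09 to 0.91, adjusted p = 0.11), and it was not called. It was called without PBS replicate 2 (0.70, adjusted p = 0.0309) and with library weights (adjusted p = 0.0393), while rescaling gave 0.22 (adjusted p = 0.658). HepLPC against PBS was at -0.15 (-0.55 to 0.26, adjusted p = 0.71), and at 0.08 after rescaling. The 2 values were 0.37 (adjusted p = 0.135) and -0.08 without PBS replicate 1 and HepLPC replicate 2.

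Xbp1, the transcription factor gene whose mRNA IRE1 splices, went its own way among the 10. It was listed at 126, 125 and 128 RPKM in normal, 99.7, 202 and 130 in PBS, and 84.1, 100 and 91.8 in HepLPC. The normal libraries were nearly equal, PBS replicates ranged on both sides of them, and all 3 HepLPC libraries were below all normal ones, the single case among the 10 genes in which HepLPC lay under normal. For HepLPC against PBS the log2 fold change was -0.58 (-1.08 to -0.08), with an unadjusted p of 0.0267 and an adjusted p of 0.236, so it was not called. It was -0.31 without PBS replicate 2, -0.81 without PBS replicate 1, and -0.88 (adjusted p = 0.0552) without PBS replicate 1 and HepLPC replicate 2. With library weights alone among the alternatives it was called, at an adjusted p of 0.0457, and rescaling gave -0.35. For PBS against normal it was 0.12 (-0.37 to 0.62), turning to -0.16 with rescaling and to -0.15 without PBS replicate 2. It was 0.36 without PBS replicate 1, with or without HepLPC replicate 2 in the fit. For HepLPC against normal it was -0.46 (-0.95 to 0.04, adjusted p = 0.572), and -0.52 without PBS replicate 1 and HepLPC replicate 2. Its correlation with the 4 chaperones over the 9 libraries was -0.38 to -0.04, and its promoter holds the ERSE, as do those of 3 of them.

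The ATF4 branch was much less abundant below Atf4 itself. Atf4, the transcription factor at the centre of the integrated stress response, is regulated mainly in translation, so its mRNA is an incomplete readout of it. It was listed at 74.1, 70.8 and 72.5 RPKM in normal, 82.1, 98.5 and 80 in PBS, and 96.2, 83.5 and 69.9 in HepLPC. All PBS libraries were above all normal ones, and HepLPC replicate 3 was below every normal library. The log2 fold change was 0.25 for PBS against normal (-0.07 to 0.58, adjusted p = 0.291) and -0.07 for HepLPC against PBS (-0.39 to 0.26, adjusted p = 0.826). Rescaling turned both signs, to -0.03 and 0.16. They were 0.29 and -0.11 without PBS replicate 1 and HepLPC replicate 2.

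Ddit3, which encodes CHOP, a factor that promotes cell death in lasting ER stress, stayed near 3 RPKM everywhere. It was listed at 3.6, 3.04 and 2.91 RPKM in normal, 3.22, 3.17 and 2.96 in PBS, and 2.43, 3.91 and 3.07 in HepLPC, from 95 to 153 reads per library. The groups overlapped, and HepLPC held both the lowest and the highest of the 9 values. The log2 fold change was -0.02 for PBS against normal, with an interval of -0.36 to 0.31, and -0.01 for HepLPC against PBS, with an interval of -0.34 to 0.33. Leaving out PBS replicate 1 and HepLPC replicate 2 gave -0.04 and -0.12. The intervals leave out a doubling of RPKM + 1 in either direction, but not the smaller differences that lie within them. Trib3, a pseudokinase gene that ATF4 and CHOP raise, was listed at 1.86, 2.08 and 0.911 RPKM in normal, 1.92, 3.76 and 2.12 in PBS, and 2.64, 0.975 and 1.28 in HepLPC. It overlapped between all groups, with log2 fold changes of 0.46 (-0.18 to 1.09, adjusted p = 0.339) for PBS against normal and -0.47 (-1.11 to 0.17, adjusted p = 0.465) for HepLPC against PBS. Both values, 0.59 and -0.42 without PBS replicate 1 and HepLPC replicate 2, kept their sign. It rested on 27 to 111 reads per library.

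Asns encodes asparagine synthetase, a classic ATF4 target that is raised when amino acids are short. It was the lowest of the 10 genes in each group, at 0.83, 0.345 and 0.245 RPKM in normal, 2.17, 1.28 and 1.37 in PBS, and 1.5, 0.622 and 0.627 in HepLPC, or 14 to 103 reads per library. Every PBS library was above every normal one, and HepLPC values spanned the gap between them. No normal library reached the filter of 1 RPKM, so Asns entered the test through the 3 PBS libraries and HepLPC replicate 1, and a gene that enters in this way had to differ to be there. Its log2 fold change for PBS against normal was 0.83 (0.32 to 1.33, adjusted p = 0.0457), and 1.90 (adjusted p = 0.039) by voom on recovered reads, since a pseudocount of 1 RPKM shrinks low genes. The call was lost in 10 of 18 alternatives. Among them were median-of-ratios rescaling (0.70, adjusted p = 0.112), quantile normalization (0.53, adjusted p = 0.252) and no filter on low values (adjusted p = 0.078). It was also lost without PBS replicate 1 and HepLPC replicate 2 together (adjusted p = 0.0619). The others left out HepLPC replicate 3 (0.0545), PBS replicate 1 (0.108), PBS replicate 2 (0.068), PBS replicate 3 (0.104), normal replicate 2 (0.154) or normal replicate 3 (0.152), adjusted p in parentheses. HepLPC against PBS was at -0.46 (-0.97 to 0.05, adjusted p = 0.361), and at -0.20 without PBS replicate 1 and HepLPC replicate 2.

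By mean RPKM, which is per length, the order was Calr, Hspa5, Hsp90b1, Pdia4, Xbp1, Atf4, Herpud1, Ddit3, Trib3 and Asns in each of the 3 groups. Calr ranked 192 among the 11124 tested genes in normal liver and Asns 10905. In PBS, Pdia4 (149 ± 6.51 RPKM) and Xbp1 (144 ± 52.5) did not differ beyond their spread, whereas in HepLPC they stood apart at 161 ± 9.15 and 92.1 ± 8.11. Pearson's r among Atf4, Ddit3, Trib3 and Asns over the 9 libraries ran from -0.35 to 0.66, lower than among the chaperones; these genes have fewer reads. The genes most like the mean of these 4 were Borcs6 (0.952), S100a8 (0.948), which encodes a calcium-binding protein of neutrophils, Tmem9 (0.948), Dedd2 (0.919) and Nsun5 (0.911).

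A wider set of 135 genes in 9 lists covered the rest of both pathways. Of these, 134 had a row (Hspa1b was not matched) and 123 were tested. In PBS against normal 12 rose and 1 fell, 10.6% of those tested, a share close to the 11.3% of all tested genes, with a median log2 fold change of 0.26 beside 0.18. In HepLPC against PBS 2 fell, 1.63% of those tested, where 3.07% of all tested genes were called, and none rose. In HepLPC against normal limma and voom called none, and 20 of the 123 had an unadjusted p under 0.05 by limma, where 9.31% of all tested genes did.

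Among the 9 sensor genes, 1 rose in PBS livers, where 10.4% of all tested genes did: Eif2ak3, which encodes PERK. It stood at 2.27, 2.5 and 2.7 RPKM in normal, 3.8, 4.23 and 4.39 in PBS, and 2.82, 1.99 and 3.09 in HepLPC, with a log2 fold change of 0.56 (adjusted p = 0.0358) for PBS against normal and -0.51 (adjusted p = 0.0971) for HepLPC against PBS. The PBS libraries were above both other groups without overlap. The rise was not called after rescaling or without PBS replicate 2, PBS replicate 3 or any normal library (adjusted p up to 0.13). Of the other sensors, none called, Ern1 had means of 6.3 ± 0.27, 5.3 ± 1.64 and 4.95 ± 2.03 RPKM in normal, PBS and HepLPC (n = 3 each), and Atf6 of 11.7 ± 1.14, 11.2 ± 2.5 and 10.5 ± 3.46. For both genes the lowest values were those of PBS replicate 1 (3.41 and 8.31 RPKM) and HepLPC replicate 2 (2.66 and 6.88), the libraries that departed over all genes. Creb3l3, a liver relative of ATF6, stood at 113 ± 15.2, 111 ± 4.97 and 130 ± 23.1 RPKM.

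Of 13 genes of eIF2, its kinases and its phosphatase, 3 rose in PBS livers, where 10.4% of all tested genes did. Eif2s1, the subunit that the kinases phosphorylate, went from 25 ± 2.2 to 39.6 ± 3.95 RPKM (log2 fold change 0.64, adjusted p = 0.0174), and Eif2b2, a subunit of the exchange factor that reloads eIF2, from 6.63 ± 0.297 to 9.99 ± 0.997 (0.52, adjusted p = 0.0324). Ppp1r15a encodes GADD34, which directs the phosphatase that takes the phosphate off eIF2, and stood at 2.46, 1.86 and 2.33 RPKM in normal, 3.98, 5.64 and 3.88 in PBS, and 2.71, 2.17 and 2.25 in HepLPC. It rose in PBS (0.76, adjusted p = 0.0139) and fell in HepLPC against PBS (-0.69, adjusted p = 0.0468), and its HepLPC values lay within or just above the normal range. The fall was lost without each of the 9 libraries in turn (adjusted p 0.0527 to 0.123), and the rise without normal replicate 2 (0.066). After rescaling none of the 13 genes was called in either comparison. Leaving out PBS replicate 1, PBS replicate 3, normal replicate 1 or normal replicate 2 ended the call of Eif2s1 (adjusted p up to 0.0755), and leaving out any PBS or normal library that of Eif2b2 (up to 0.125).

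None of the 20 other chaperones and folding enzymes of the ER was called in PBS against normal, where 11.3% of all tested genes were. Their median log2 fold change was 0.31 and fell to 0.03 on rescaling. Hyou1, an exchange factor for BiP, stood at 20.5 ± 5.05, 29.7 ± 0.932 and 27.7 ± 2.3 RPKM in normal, PBS and HepLPC, with a log2 fold change of 0.54 (adjusted p = 0.0784) for PBS against normal. Dnajb9, a cochaperone of BiP and known target of XBP1, stood at 15.4 ± 1.26, 25.2 ± 6.99 and 29.6 ± 10.7 RPKM (0.64, adjusted p = 0.161). Sdf2l1, another partner of BiP, stood at 14 ± 2.9, 23.2 ± 5.46 and 28.1 ± 18.2 RPKM (0.69, adjusted p = 0.258), and HepLPC replicate 2, at 49 RPKM, accounts for the large SD of the last group. Genes of ER-associated degradation (15 tested, median 0.09), of translocation into the ER (19 tested, 0.19), cytosolic aminoacyl-tRNA synthetases (12 tested, 0.30) and cytosolic and mitochondrial heat shock proteins (10 tested, 0.31) also had no called gene in PBS against normal. By limma, 4 of the chaperones and 3, 5, 6 and 4 genes of the other lists, in that order, had an unadjusted p under 0.05, where 27.3% of all tested genes did, and voom called 0 in each. In HepLPC against PBS these 5 lists likewise held 0 called genes, where 3.07% of all tested genes were called. Their medians were 0.02 (chaperones), -0.01, 0.02, -0.04 and -0.29. There 1 chaperone and 1 heat shock gene had an unadjusted p under 0.05 by limma, where 16.1% of all tested genes did, and voom called 0. With PBS replicate 1 and HepLPC replicate 2 left out, 2 or 3 genes of each of the 5 lists rose in PBS against normal, where 26% of all tested genes did.

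Of 18 genes of amino acid synthesis and transport, 13 were tested and 5 rose in PBS livers, where 10.4% of all tested genes did: Phgdh, Psat1, Pycr1, Slc7a5 and Pck2. All but Pck2 rose after rescaling too. Phgdh, the first enzyme of serine synthesis, stood at 0.617, 0.27 and 0.299 RPKM in normal, 3.06, 2.41 and 4.91 in PBS, and 1.36, 2.1 and 1.17 in HepLPC (log2 fold change 1.65, adjusted p = 0.00188, for PBS against normal). Psat1, the next enzyme of that pathway, stood at 0.562, 0.425 and 0.613 RPKM in normal, 3.52, 2.13 and 4.81 in PBS, and 2.75, 1.48 and 1.79 in HepLPC (1.51, adjusted p = 0.00357). For both genes all HepLPC libraries were above all normal ones, and for Phgdh they were also below all PBS ones. Pycr1, the mitochondrial enzyme of the last step of proline synthesis, stood at 0.692, 0.413 and 0.559 RPKM in normal, 3.84, 2.74 and 5.1 in PBS, and 0.87, 0.775 and 1.21 in HepLPC. It rose in PBS (1.63, adjusted p = 0.000967) and fell in HepLPC against PBS (-1.30, adjusted p = 0.00802). No normal library of Phgdh, Psat1, Pycr1 or Slc7a5 reached 1 RPKM, so these genes entered the test only through the cirrhotic groups where they were high, Pycr1 through the PBS libraries and HepLPC replicate 3. Such genes had to differ to be tested, and their count among the 5 is no support for a change of the list.

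Slc7a5, a transporter of large neutral amino acids, rose from 0.553 ± 0.17 to 1.91 ± 0.639 RPKM (0.89, adjusted p = 0.0148) and Pck2, the mitochondrial phosphoenolpyruvate carboxykinase, from 3.33 ± 0.447 to 7.75 ± 1.68 (1.00, adjusted p = 0.0237), with 1.32 ± 0.32 and 4.89 ± 1.75 in HepLPC. The call of Slc7a5 was lost without PBS replicate 3, normal replicate 1 or normal replicate 3 (adjusted p up to 0.0634), and that of Pck2 without PBS replicate 1, PBS replicate 3 or any normal library (up to 0.0894). For HepLPC against PBS the log2 fold changes were -0.79 for Phgdh (adjusted p = 0.0997), -0.55 for Psat1 (0.28), -0.60 for Pck2 (0.238) and -0.32 for Slc7a5 (0.444), none of them called.

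**Figure D4:**
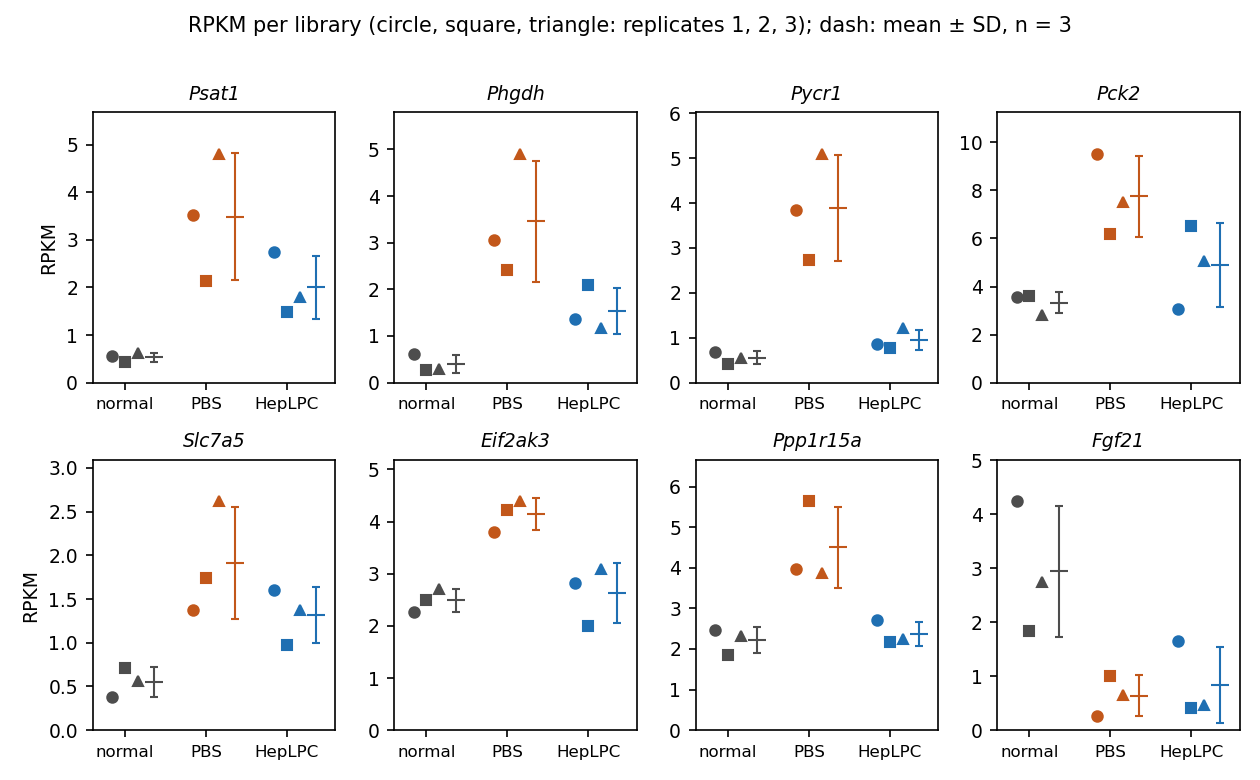
RPKM of 8 genes around eIF2 and ATF4 in each library (circle, square and triangle for replicates 1, 2 and 3; dash and bar, mean ± SD, n = 3), each panel with its own y axis from 0. The PBS libraries of Psat1, Phgdh, Pycr1, Pck2, Slc7a5, Eif2ak3 and Ppp1r15a lie above all normal libraries, those of Fgf21 below them, and the HepLPC libraries of Pycr1 lie between 0.775 and 1.21 RPKM.

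The factors and regulators downstream of ATF4 and CHOP did not move as 1 group. Of 13 tested, 3 rose and 1 fell in PBS against normal, where 10.4% and 0.944% of all tested genes did. Eif4ebp1, an inhibitor of cap-dependent translation, rose from 18.8 ± 1.58 to 31.2 ± 5.01 RPKM (0.69, adjusted p = 0.0162), Ddit4, an inhibitor of mTORC1, from 1.93 ± 0.455 to 4.67 ± 1.29 (0.94, adjusted p = 0.0174), and Tnfrsf10b, a death receptor for TRAIL, from 0.997 ± 0.206 to 2.48 ± 0.71 (0.78, adjusted p = 0.0246). Fgf21, a liver hormone gene that ATF4 can raise, fell: it stood at 4.24, 1.83 and 2.75 RPKM in normal, 0.268, 1.01 and 0.646 in PBS, and 1.65, 0.412 and 0.458 in HepLPC (-1.24, adjusted p = 0.0291). Its PBS and HepLPC values were all below the lowest normal value. Outside the normal group, Fgf21 reached 1 RPKM only in PBS replicate 2 (1.01) and HepLPC replicate 1 (1.65). It thus met the filter of 1 RPKM in 3 libraries only with the normal group, where it was high, and its call is no support for a change of the list. Atf3, a stress-induced repressor, and Chac1, which degrades glutathione, were not called, at 1 ± 0.301 and 0.574 ± 0.217 RPKM in normal, 1.49 ± 0.974 and 0.822 ± 0.498 in PBS, and 0.629 ± 0.207 and 1.05 ± 0.569 in HepLPC. After rescaling, Tnfrsf10b and Fgf21 were called in the list. The calls of Eif4ebp1 and Ddit4 were lost without PBS replicate 3, normal replicate 2 or normal replicate 3 (adjusted p up to 0.0695 and 0.0768), that of Tnfrsf10b without PBS replicate 2, PBS replicate 3 or any normal library (up to 0.104), and that of Fgf21 without PBS replicate 1, PBS replicate 3, normal replicate 1 or normal replicate 3 (up to 0.101).

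**Figure D5:**
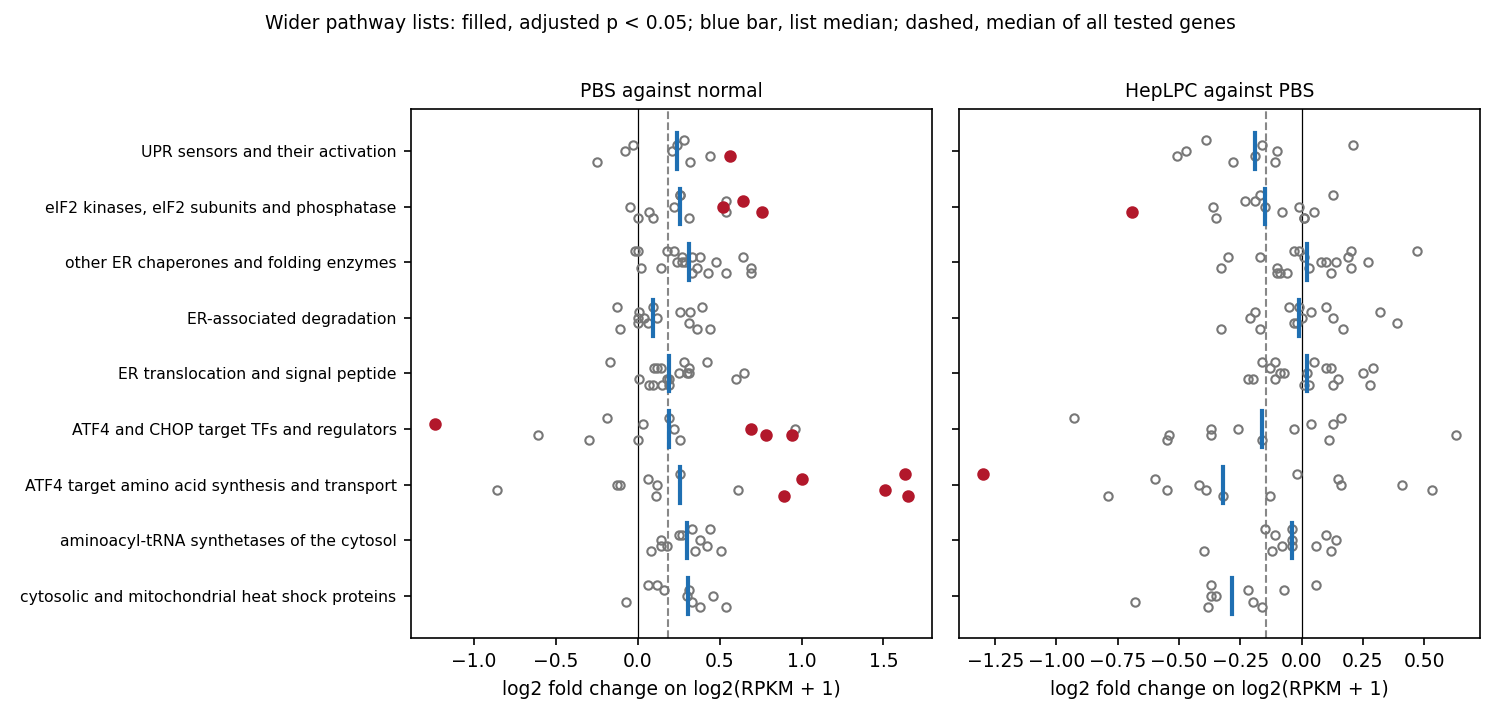
Log2 fold change (x axis, log2(RPKM + 1)) of each tested gene of the 9 pathway lists in PBS against normal and HepLPC against PBS; filled circles are called genes, blue bars the list medians and the dashed line the median of all tested genes. Filled circles in PBS against normal lie in 4 lists, with 5 of them among the amino acid genes; after median-of-ratios rescaling, called genes lie in 2 lists, with 4 and 2 genes.

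The genes whose promoters hold the ERSE or ERSE-II were picked by sequence, but they overlap the genes above. Besides Hspa5, Hsp90b1, Calr, Herpud1 and Xbp1, they include Canx, Creld2, Dnajb11, Dnajc3, Ero1b and Hyou1 of the chaperone list. These elements were found at 38 gene symbols, 33 of them with a row and 24 tested. Of the 24, 5 rose in PBS against normal (Hsp90b1, Birc5 at 0.88, Prkcz at 0.59, Zfand2a at 0.71 and Zfp57 at 0.76) and none fell, where 10.4% of all tested genes rose. By voom, 4 of these 5 were called, Birc5 being the exception. The median log2 fold change was 0.30 and went to 0.02 on rescaling, after which Zfp57 was the only one of the 5 called (0.59, adjusted p = 0.0373). Without the genes described here 19 were left, of which 4 rose, with a median of 0.24. By limma, 9 of the 24 had an unadjusted p under 0.05 in PBS against normal, where 27.3% of all tested genes did. In HepLPC against PBS limma and voom called none of the 24, where limma called 3.07% of all tested genes. There 3 of the 24 had an unadjusted p under 0.05 by limma, where 16.1% of all tested genes did, and the median was -0.10.

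Markers of other cell types differed between the groups beside all of these results. The 10 bile duct markers summed to 8.93 to 10.8 RPKM in normal, 54.3 to 188 in PBS and 10.9 to 20.5 in HepLPC. Of these, 8 were tested, and all 8 rose in PBS against normal, where 10.4% of all tested genes did. All 8 fell in HepLPC against PBS, where 2.93% of all tested genes did. By voom, 8 and 4 of them were called in these 2 comparisons. With sums this low outside PBS, markers can have met the filter of 1 RPKM in 3 libraries only through PBS, where they were high. Markers that enter in this way had to differ to be tested, so these counts are not read as a result. Fibroblast and myofibroblast markers summed to 26 to 26.8, 89.7 to 143 and 49.9 to 66.1 RPKM. Of 7 tested, 6 rose in PBS against normal and 2 fell in HepLPC against PBS, and voom called 6 and 1. The shares of all tested genes in limma were again 10.4% and 2.93%, and the limit of the filter may hold here too. Macrophage markers summed to 268 to 357, 445 to 631 and 299 to 457 RPKM, and B and plasma cell markers to 10.6 to 13.9, 28.8 to 35.6 and 23.9 to 39.5. Endothelial markers summed to 93.8 to 110, 109 to 135 and 96.7 to 113 RPKM. In PBS against normal limma called 1 of 10 macrophage, 1 of 2 tested B and plasma cell and 1 of 10 endothelial markers, all higher. In HepLPC against PBS 1 macrophage marker fell, and no marker of the B and plasma cell or endothelial lists was called. The 10 hepatocyte markers, with sums of 70273 to 90700, 65689 to 74245 and 73706 to 88106 RPKM, held no gene called by limma or voom in either comparison (1 had an unadjusted p under 0.05 in each), and no marker of any list was at 0 in all libraries. The part of these cell types in the differences of the stress response genes was not tested.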

How the data were processed

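Total RNA of 9 whole liver samples of rats was sequenced, with group and replicate number read from each title. The deposited files hold RPKM, as stated per the file headers, with 1 file for each library. The submitters' processing notes name HISAT2, StringTie and the human build hg19, whereas the rows carry rat symbols, so the build and annotation behind the RPKM values are uncertain, and the treatment of strand and of multiply mapped reads is a detail not given in the sources used here. Promoter coordinates are those of the RefSeq table of GRCr8, not of the files.

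RPKM values were tested as log2(RPKM + 1) with limma 3.58.1 in R 4.3.3 (lmFit, eBayes with trend, 2-sided). A single model of the 9 libraries, with group as its term and 6 residual degrees of freedom, was fitted to the 11124 genes that reached 1 RPKM in 3 libraries. The call threshold was 0.05 for the p adjusted over all of these by Benjamini and Hochberg. Fold changes on this scale understate the change of low genes. Whole reads were recovered from the RPKM steps for 20959 of 20959 genes above 0 in 3 or more libraries (tolerance 0.01 read), and voom on these reads was added as an alternative after seeing the data. It called 1191 genes in PBS against normal, 279 in HepLPC against PBS and 0 in HepLPC against normal. The recovery and the limma fit were tested on simulated data.

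The 10 genes, the pathway lists and the markers were chosen with earlier results of these data known. The rule for named genes took the 10, a panel of 14 pathway genes, up to 4 further called genes per list, and for each branch the 5 genes of highest correlation. Panel gene Hspa1b was not matched. Alternatives changed the pseudocount, the filter, the scaling, the libraries in the fit, library weights and the replicate block, or left out libraries.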

Additional observations from a re-analysis of the deposited data

How the results depend on the processing

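In 561 recomputed log2 fold changes of the 10 genes, 511 kept their direction and their side of the threshold, 28 turned sign, 19 lost a call and 3 gained one. For the other genes named, only PBS against normal and HepLPC against PBS were counted. Of their 776 values, 666 were kept, 25 turned, 81 lost a call and 4 gained one. None of the turned values was called in the fit reported. The count of the 10 genes called in PBS against normal, 2 as reported, was 3 with library weights, 0 after median-of-ratios rescaling and with no filter on low values, and 1 with a filter at 5 RPKM, with quantile normalization and in the fit that lacks both PBS replicate 1 and HepLPC replicate 2; with 1 library left out it was 0 to 2. In HepLPC against PBS it was 1 with library weights. Causes were not tested, except that with no filter more genes are tested and that the filter at 5 RPKM leaves Ddit3, Trib3 and Asns untested.

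Over all tested genes, the 1262 calls of PBS against normal became 568 with the filter at 5 RPKM, 3827 with library weights, 806 with median of ratios, 714 with quantile normalization, 3168 without PBS replicate 1 and HepLPC replicate 2, and 562 to 1809 with 1 library left out. The 341 calls of HepLPC against PBS became 106, 810, 181 and 213 under the first 4 of these, 86 in a fit of the 2 groups compared, and 90 to 398 with 1 library left out. The 9 calls of HepLPC against normal became 0 with the filter at 5 RPKM, with no filter and by voom, 51 with library weights, 3 with quantile normalization, 16 without PBS replicate 1 and HepLPC replicate 2, and 1 to 14 with 1 library left out.

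Deviations of same-numbered libraries of different groups correlated at r from -0.412 to 0.31. The labels do not say whether the numbers pair samples. These r values cannot settle it, since the deviations within a group of 3 libraries are tied to each other. With the replicate number as a block, 1 of the 10 genes was called in PBS against normal (Asns, adjusted p = 0.0108, whereas Hsp90b1 had 0.0961), and the block gave 787, 198 and 1 calls over all genes in the 3 comparisons.

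Median-of-ratios rescaling turned Pdia4 (-0.05), Xbp1 (-0.16) and Atf4 (-0.03) in PBS against normal, and Hsp90b1 (0.02), Herpud1 (0.08), Atf4 (0.16), Ddit3 (0.17), Ern1 (0.08), Atf6 (0.11), Hyou1 (0.13) and Eif2s1 (0.04) in HepLPC against PBS. Quantile normalization turned Atf3 (-0.02) and Chac1 (-0.10) in the first comparison and Ddit3 (0.21), Ern1 (0.08) and Atf6 (0.05) in the second. Library weights turned Atf6 (0.06) in PBS against normal, Calr (-0.02) and Sdf2l1 (-0.12) in HepLPC against PBS, and Trib3 (0.16) in HepLPC against normal. Without PBS replicate 1 and HepLPC replicate 2 these were Atf6 (0.10), Chac1 (-0.03), Calr (-0.03), Sdf2l1 (-0.18) and Trib3 (0.17). For HepLPC against normal these lists cover the 10 genes only. Atf6, outside them, went from -0.18 to 0.07 in that comparison without the same 2 libraries.

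With 1 library left out, values on both sides of 0 arose in PBS against normal for Xbp1 (-0.15 to 0.36), Ddit3 (-0.07 to 0.05), Atf6 (-0.18 to 0.10), Creb3l3 (-0.14 to 0.05), Atf3 (-0.04 to 0.44) and Chac1 (-0.03 to 0.32). In HepLPC against PBS they arose for Hspa5 (-0.05 to 0.17), Calr (-0.06 to 0.06), Atf4 (-0.18 to 0.05), Ddit3 (-0.14 to 0.12), Ern1 (-0.35 to 0.20), Atf6 (-0.30 to 0.15), Dnajb9 (-0.04 to 0.50), Sdf2l1 (-0.35 to 0.40), Chac1 (-0.03 to 0.38) and Fgf21 (-0.17 to 0.29), and in HepLPC against normal for Ddit3 (-0.16 to 0.10) and Trib3 (-0.27 to 0.17). Depth limits Asns, Trib3 and Ddit3, which rest on 14 to 153 reads per library.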
